A study of Homo sapiens with 2 samples.

Results

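The 10 genes described here are HOXA3, HOXA4, HOXA5, HOXA6, HOXA7, HOXA9, HOXA10 and HOXA11 of the HOXA cluster on chromosome 7, together with MEIS1 on chromosome 2 and PBX3 on chromosome 9. They were taken by symbol from the deposited gene table, where each of the 10 matched 1 of 30856 rows. The study compared Ara-C resistant THP1 cells, which had been taken stepwise from 5 nM to 10 µM of the nucleoside analogue Ara-C (cytarabine), with untreated parental THP1 cells. THP1 is an established human acute monocytic leukaemia line, the labels name no other allele or agent in either group, and there was 1 library of poly(A) RNA per group. The label of the resistant cells describes a population selected by rising drug exposure, which counted as resistant once it grew as fast as untreated cells; whether it was cloned, or held in drug at harvest, is not stated. With 1 library per group every difference below is between 2 libraries and has no replicate check.

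HOX genes encode homeodomain transcription factors that lie in clusters in the order in which they act along the body axis. In blood they are active in stem and progenitor cells and are switched off as cells mature. In leukaemias with a KMT2A rearrangement, as in THP1, the fusion protein keeps the posterior HOXA genes transcribed, and HOXA9 then binds DNA together with the TALE homeodomain proteins of the PBX and MEIS families, of which PBX3 and MEIS1 are the best known partners in this disease. The fusion itself cannot be seen in a table of gene totals.

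The resistant library held 58285463 counts and the parental library 57434972. Of 11 monocytic leukaemia markers, 9 in the resistant and 10 in the parental library reached 1 FPKM (fragments per kilobase of transcript, scaled to the library), among them CD33 at 11.1 FPKM in the resistant and 11.9 in the parental library and SPI1 at 62.3 in the resistant and 64.4 in the parental library. CD14 stood at 0.03 FPKM in resistant cells against 0.50 FPKM in parental cells, LYZ at 95.8 against 225, CSF1R at 7.74 against 12.2, and MPO at 0.94 against 2.81. CD4 at 28.3 against 22.0 and FCGR1A at 41.2 against 29.6 were higher in resistant cells. The whole list summed to 419.8 FPKM in the resistant library against 542 in the parental library, and without LYZ to 324 in the resistant against 317 in the parental library. CEBPA alone gave 141 FPKM of that last sum in the resistant and 139 in the parental library. The part of such marker differences in the values below was not tested. Summed FPKM of the measured B and plasma cell, erythroid, and epithelial and fibroblast markers stayed at or below 0.52 in the resistant and 0.51 in the parental library. Megakaryocyte markers summed to 0.73 in the resistant and 1.35 in the parental library. Among T and NK cell markers NKG7 made up nearly all of the 10.5 FPKM in resistant cells and 11.3 FPKM in parental cells.

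The program named for the KMT2A fusion was present in part. PBX3, HOXA9, HOXA10 and HOXA11 were well expressed in both libraries, HOXA5 and HOXA7 stood near 1 FPKM, HOXA3, HOXA4 and HOXA6 were below it, and MEIS1 was at or near 0. None of the 6 members that reached 1 FPKM in a library differed by 1.5-fold or more on the log2(FPKM + 1) scale, where 2.93% of all expressed genes were that much higher and 4.77% lower in resistant cells. By count fold, with no pseudocount, HOXA7 alone among these 6 passed 1.5-fold, where 5.43% of expressed genes were that much higher and 8.36% lower. HOXA7 had 376 counts over both libraries, and the share past 1.5-fold among genes with few counts was not computed. At 2-fold that share was larger than among all genes, as given below. The larger count folds lay in the weakly expressed members, with HOXA4 lower and HOXA3, HOXA6 and HOXA7 higher in resistant cells, and that of HOXA3 rests on 29 counts over both libraries. In these bulk libraries fewer cells that express a gene and less of its RNA per cell cannot be told apart.

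The sequences before the annotated start sites are shown for HOXA4 and HOXA7, which differed in opposite directions, for HOXA9 and HOXA10, the most abundant HOXA genes, and for MEIS1 and PBX3, the TALE members at the bottom and the top of the levels. Each is the 250 bases upstream of a RefSeq start site (GRCh38.p14), read 5′ to 3′ on the strand of the gene, with capitals marking matches on either strand to the box CCAAT, the box TATAAA, the MEIS core TGACAG, the PBX and HOX site TGATTTAT or the posterior HOX site TTTATGG.
HOXA4, chr7:27130758-27131007, minus strand: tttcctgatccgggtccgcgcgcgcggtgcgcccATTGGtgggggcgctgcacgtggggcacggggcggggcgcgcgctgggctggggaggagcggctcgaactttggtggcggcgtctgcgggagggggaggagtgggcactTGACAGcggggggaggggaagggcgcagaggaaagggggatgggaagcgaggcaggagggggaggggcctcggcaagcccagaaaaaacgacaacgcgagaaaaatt
HOXA7, chr7:27156676-27156925, minus strand: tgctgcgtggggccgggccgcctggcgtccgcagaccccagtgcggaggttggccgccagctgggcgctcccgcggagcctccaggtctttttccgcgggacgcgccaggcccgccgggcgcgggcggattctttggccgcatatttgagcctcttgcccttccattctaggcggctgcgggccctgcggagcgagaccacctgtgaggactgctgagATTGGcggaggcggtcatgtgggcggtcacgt
HOXA9, chr7:27165538-27165787, minus strand: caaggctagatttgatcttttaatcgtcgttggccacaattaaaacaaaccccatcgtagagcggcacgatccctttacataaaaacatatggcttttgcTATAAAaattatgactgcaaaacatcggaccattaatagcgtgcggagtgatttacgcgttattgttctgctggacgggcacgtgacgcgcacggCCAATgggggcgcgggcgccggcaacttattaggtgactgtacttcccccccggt
HOXA10, chr7:27174321-27174570, minus strand: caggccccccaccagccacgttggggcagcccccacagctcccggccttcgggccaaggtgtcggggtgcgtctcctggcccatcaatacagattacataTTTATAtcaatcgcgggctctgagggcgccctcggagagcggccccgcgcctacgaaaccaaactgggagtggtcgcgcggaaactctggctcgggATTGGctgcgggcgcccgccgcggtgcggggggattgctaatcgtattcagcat
MEIS1, chr2:66434875-66435124, plus strand: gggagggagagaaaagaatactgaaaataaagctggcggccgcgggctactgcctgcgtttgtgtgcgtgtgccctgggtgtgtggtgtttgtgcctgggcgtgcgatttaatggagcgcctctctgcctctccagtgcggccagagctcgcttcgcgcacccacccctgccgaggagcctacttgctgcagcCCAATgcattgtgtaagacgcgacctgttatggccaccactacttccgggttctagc
PBX3, chr9:125747933-125748182, plus strand: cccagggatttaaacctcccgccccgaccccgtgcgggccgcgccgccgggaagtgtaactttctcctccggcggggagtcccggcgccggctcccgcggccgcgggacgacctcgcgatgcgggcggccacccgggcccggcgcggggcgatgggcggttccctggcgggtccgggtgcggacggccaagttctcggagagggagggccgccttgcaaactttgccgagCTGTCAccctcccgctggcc

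RefSeq promoter windows were matched for 9 of the 10 members, with 16 windows in all; HOXA5 was not matched. The HOXA7 start site and the HOXA10 start site shown fall on the 5′ ends of the deposited rows, and the HOXA4 site lies 23 bases inside its row. The HOXA9 site lies 4200 bases inside its row, which also holds longer transcripts. The MEIS1 and PBX3 sites lie 1673 and 838 bases inside theirs. Of 35116 RefSeq windows of the same length, 32.0% hold CCAAT or its complement, 10.7% TATAAA, 13.0% TGACAG, 2.30% TTTATGG and 0.752% TGATTTAT. The PBX and HOX site and the posterior HOX site can share letters, and neither exact string was found in any of the 16 windows. Variants of these sites were not searched. The HOXA9 window holds tgatttac, which differs from TGATTTAT in its last letter. TGACAG was found before HOXA4, 107 bases from the start, and in reverse before PBX3, 20 bases from it. TATAAA or its reverse stood 150 bases before both the HOXA9 and the HOXA10 site shown. In windows not shown it stood in reverse 29 bases before a HOXA3 site and 222 bases before another HOXA10 site. The 250 bases held 26 CG pairs for HOXA4, 28 for HOXA7, 20 for HOXA9, 24 for HOXA10, 16 for MEIS1 and 36 for PBX3, against a median of 11 over all windows. The PBX3 window thus held more CG pairs than 95.1% of windows and the MEIS1 window more than 59.0%. These matches describe letters in a window and are not measured binding sites.

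PBX3, which encodes a TALE homeodomain partner of HOX proteins, was the most abundant member. It lies on chr9:125747345-125967377 (ENSG00000167081, plus strand, GRCh38) and stood at 19.2 FPKM with 6395 counts in resistant cells, against 18.0 FPKM with 5880 counts in parental cells. In counts relative to the library total it was 1.07-fold higher in resistant cells, with an exact 95% counting interval (Clopper-Pearson) of 1.03 to 1.11. This and all later intervals cover counting error only and no spread between cultures. Its level exceeded that of 82.3% of the 11388 expressed genes in the resistant library and of 80.9% in the parental library. Expressed genes are those with a symbol and at least 1 FPKM in a library.

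HOXA9, a central target of KMT2A fusions whose forced expression drives leukaemia with MEIS1 in mice, was the most abundant HOXA gene. It lies on chr7:27162438-27169737 (ENSG00000078399, minus strand, like all HOXA genes) and had 2867 counts and 13.9 FPKM in the resistant library against 3248 counts and 16.1 FPKM in the parental library, which is a count fold of 0.870 (0.827 to 0.915). HOXA10, its neighbour, which also blocks myeloid maturation when overexpressed, lies on chr7:27170592-27174320 (ENSG00000253293) and had 2423 counts and 9.59 FPKM in the resistant library against 2671 counts and 10.8 FPKM in the parental library, which is a count fold of 0.894 (0.846 to 0.945). Both were slightly lower in resistant cells, and HOXA9 stood 1.45 times as high as HOXA10 in the resistant library and 1.49 times in the parental library in FPKM.

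HOXA11, a posterior gene best known from limb, kidney and uterine development, lies on chr7:27181157-27185232 (ENSG00000005073). It had 1123 counts and 6.20 FPKM in the resistant library against 1108 counts and 6.23 FPKM in the parental library, which is a count fold of 0.999 (0.918 to 1.09), so no difference in HOXA11 was detectable at this depth. Its level was thus near the middle of the expressed genes, above 51.2% of them in the resistant and 50.8% in the parental library.

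**Figure D1:**
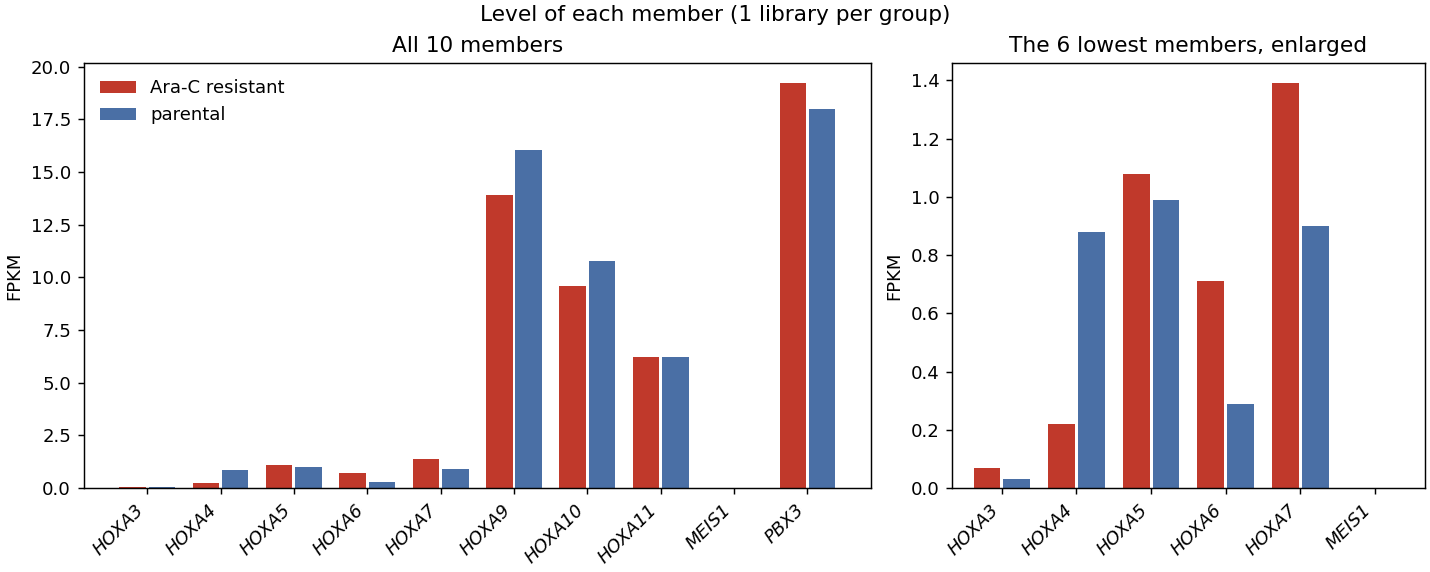
FPKM of the 10 members in the Ara-C resistant library (red, left) and the parental library (blue, right), with the 6 lowest members enlarged in the right panel on an axis of its own. PBX3 leads at 19.2 FPKM in the resistant and 18.0 in the parental library, HOXA4 is at 0.22 FPKM in the resistant and 0.88 in the parental library, and MEIS1 is at 0 in both.

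The members between HOXA3 and HOXA7 were expressed at a low level in both libraries. HOXA7, whose protein takes part in early blood cell and keratinocyte control, lies on chr7:27153716-27156675 (ENSG00000122592) and had 229 counts and 1.39 FPKM in the resistant library against 147 counts and 0.90 FPKM in the parental library, which is a count fold of 1.54 (1.24 to 1.9). HOXA6 (ENSG00000106006, chr7:27145396-27150603) had 62 counts and 0.71 FPKM in the resistant library against 26 counts and 0.29 FPKM in the parental library, which is a count fold of 2.35 (1.46 to 3.87). HOXA5, a regulator of lung development and of red and myeloid cell fate, lies between HOXA4 and HOXA6 on chr7:27141052-27143681 (ENSG00000106004). It had 127 counts and 1.08 FPKM in the resistant library against 114 counts and 0.99 FPKM in the parental library, which is a count fold of 1.10 (0.846 to 1.43), so the libraries were not distinguishable for HOXA5 at this depth.

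HOXA4 was the member with the largest relative difference. It lies on chr7:27128507-27130780 (ENSG00000197576) and stood at 0.22 FPKM with 26 counts in resistant cells, against 0.88 FPKM with 102 counts in parental cells, which made it 3.98-fold lower in resistant cells (2.57 to 6.38). HOXA3 (ENSG00000105997, chr7:27106184-27140225), an anterior gene needed for pharyngeal organs such as the thymus, had 21 counts in resistant and 8 in parental cells, or 0.07 FPKM in the resistant and 0.03 in the parental library, a fold of 2.59 (1.10 to 6.75). The span of the HOXA3 row includes the whole of HOXA4 on the same strand, though the transcripts listed for the 2 rows share no stretch of read length. How the authors counted reads inside such a span is not given in the sources used here. Summed over both rows the locus had 47 counts in resistant and 110 in parental cells, a fold of 0.421 (0.293 to 0.598). HOXA4 gave 26 of these 47 counts in resistant cells and 102 of the 110 in parental cells, so the sum is no separate check of either gene.

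MEIS1, the TALE partner that shortens the latency of HOXA9-driven leukaemia in mice, was listed at 0 FPKM in both libraries. Its row, ENSG00000143995 at chr2:66433452-66573869 on the plus strand with 1 listed transcript of 4291 bases in GENCODE 29, had 4 counts in the resistant library and 0 in the parental library, where a count of 0 allows up to 3. The counting interval of the ratio started at 0.650, so no difference in MEIS1 was detectable at this depth. The name of the program is thus not borne out for MEIS1 in either library.

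In order of FPKM the parental library ran PBX3, HOXA9, HOXA10, HOXA11, HOXA5, HOXA7, HOXA4, HOXA6, HOXA3 and MEIS1. The resistant library kept the same first 4 and the same last 2 places and ran HOXA7, HOXA5, HOXA6 and HOXA4 between them. HOXA5, HOXA7 and HOXA4, at 0.99, 0.90 and 0.88 FPKM in parental cells, are too close to be ordered from 1 library. The ratio of HOXA9 to HOXA4 in FPKM was 63.3 in the resistant and 18.2 in the parental library, and that of HOXA9 to HOXA7 was 10.0 in the resistant and 17.8 in the parental library.

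The differences in the members were set beside those of all genes. Of 11388 expressed genes, 0.632% passed 2-fold upward and 1.23% downward in resistant relative to parental cells on the log2(FPKM + 1) scale, and the shares past 1.5-fold were those given above. Of the 6 expressed members 0 passed either size. Their log2 ratios ran from -0.19 for HOXA9 to 0.33 for HOXA7, with 3 above 0 and 3 below. The median was 0.03, and that of all expressed genes was -0.02. HOXA5 and HOXA7 reached 1 FPKM in the resistant library alone, so the filter admitted them through the library in which they were higher, and the count and the median serve as a description alone. Intervals wholly above 1 were found for 33.7% of expressed genes and wholly below 1 for 39.1%. Among the 6 members they were above 1 for HOXA7 and PBX3 and below 1 for HOXA9 and HOXA10.

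Without the FPKM filter and the pseudocount, low members can pass the size rule. Of the 9 members with at least 20 counts over both libraries, HOXA3 and HOXA6 passed 2-fold upward and HOXA4 downward by count fold, resistant over parental. Of 15952 genes with a symbol and as many counts, 5.05% passed 2-fold upward and 9.18% downward. These 3 members all had fewer than 500 counts, as did HOXA5 and HOXA7, and among the 4960 such genes with fewer than 500 counts 13.8% passed upward and 23.2% downward.

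**Figure D2:**
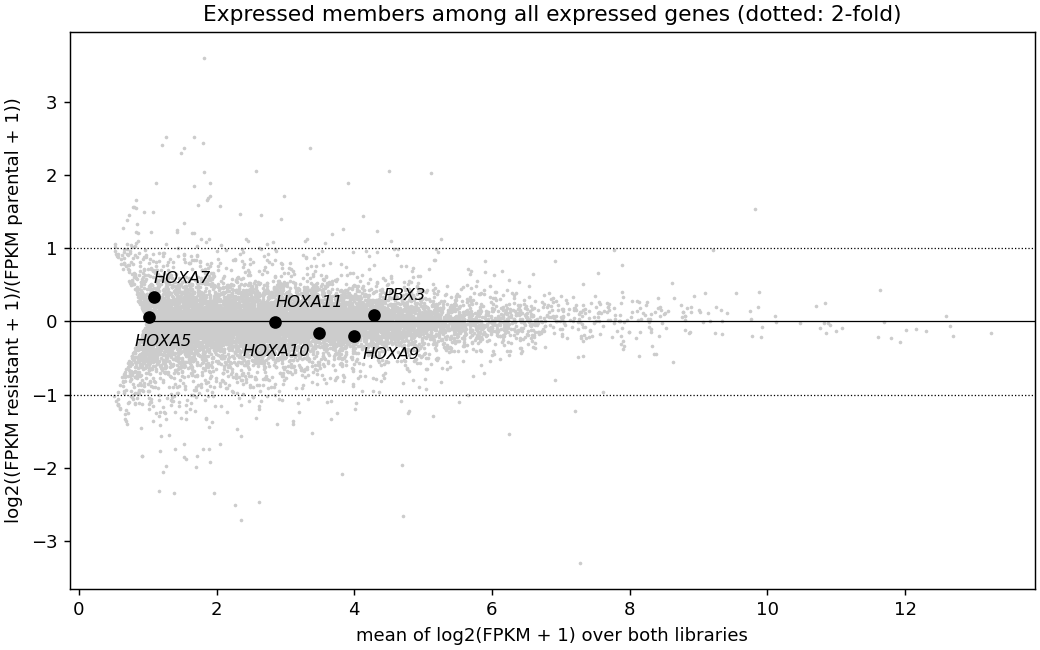
The log2((FPKM resistant + 1)/(FPKM parental + 1)) of 11388 expressed genes (grey) against their mean log2(FPKM + 1), with the 6 expressed members in black and dotted lines at 2-fold. The members lie between -0.19 and 0.33, inside the cloud of genes of their own level.

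Along the cluster the level changed between HOXA7 and HOXA9 in both libraries. The posterior genes HOXA9, HOXA10, HOXA11 and HOXA13 summed to 34.0 FPKM in resistant cells against 39.1 FPKM in parental cells, or 90.7% of the summed FPKM of the 9 genes from HOXA3 to HOXA13 in the resistant and 92.7% in the parental library. HOXA3 to HOXA7 summed to 3.47 FPKM in resistant cells against 3.09 FPKM in parental cells. This division was made after the values were seen. In counts the posterior sum had a fold of 0.855 (0.829 to 0.881). Its genes were not alike and ran from 0.703 for HOXA13 to 0.999 for HOXA11. The sum of HOXA3 to HOXA7 had a fold of 1.15 (1.01 to 1.32), and that sum holds HOXA4 and HOXA6, which differed in opposite directions.

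HOXA13, the last gene of the cluster, is no member but is next to HOXA11. It stood at 4.27 FPKM in resistant cells against 6.08 FPKM in parental cells, a fold of 0.703 (0.657 to 0.752), which was the lowest of the posterior genes. HOXA11 and HOXA13 were thus nearly level in parental cells, with a ratio of 1.02, while HOXA11 stood 1.45 times as high in resistant cells. HOXA2, an anterior gene of hindbrain and ear development, had 0 counts in the resistant and 4 in the parental library.

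The long noncoding RNAs of the opposite strand followed no common direction. HOTAIRM1, a transcript known from myeloid cells, had 72 counts and 0.69 FPKM in the resistant library against 142 counts and 1.40 FPKM in the parental library, which is a count fold of 0.50 (0.371 to 0.668). HOXA11-AS was at 1.92 FPKM in the resistant and 2.52 in the parental library (0.767, 0.673 to 0.874), and HOTTIP, which recruits KMT2 complexes to the posterior genes, at 1.03 FPKM in the resistant and 1.10 in the parental library (0.948, 0.818 to 1.10). HOXA10-AS was higher in resistant cells at 3.22 FPKM against 2.69 in parental cells (1.19, 1.02 to 1.40). HOXA-AS3, whose row lies opposite HOXA4 to HOXA6, had 37 counts in each library, and HOXA-AS2 had 6 in resistant and 7 in parental cells. EVX1 and EVX1-AS at the posterior edge had 0 counts in both, which allows up to 3 each, and the microRNA gene MIR196B, not captured well by poly(A) selection, had 1 in the resistant and 0 in the parental library.

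**Figure D3:**
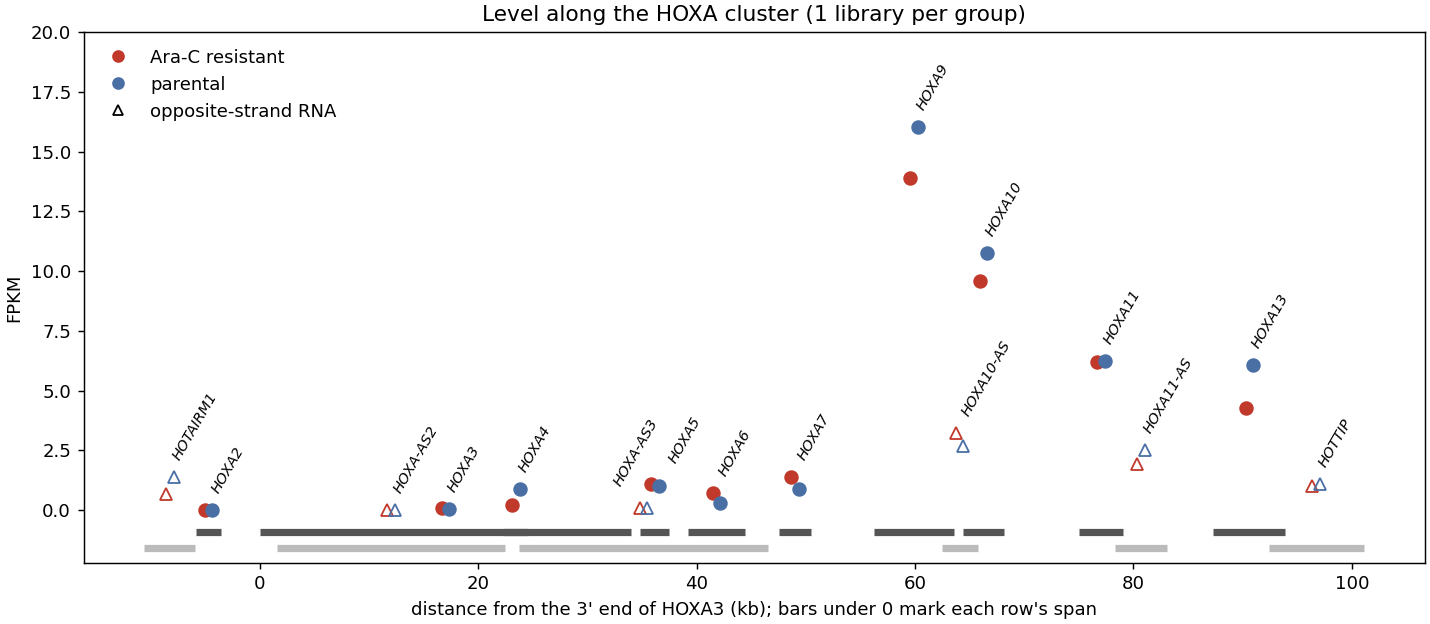
FPKM of the HOXA genes described (filled circles) and of opposite-strand RNAs (open triangles) by distance in kb from the 3′ end of HOXA3, for the resistant (red, drawn left) and parental (blue, drawn right) library, with the span of each row as a bar under 0 (dark for HOXA genes, light for opposite-strand RNAs). The level steps up between HOXA7 and HOXA9, to 13.9 FPKM against 1.39 in resistant cells and to 16.1 FPKM against 0.90 in parental cells.

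Overlap inside the cluster limits some of these values. Of all 150-base stretches, the read length, in the listed transcripts of HOXA9 and HOXA10, 8.32% and 5.59% also occur in transcripts of an unnamed protein-coding row that spans both genes and had 0 counts in each library. For HOXA4 24.7% occur in an overlapping transcript of the same strand that was not analysed here. On the opposite strand of GENCODE 29, 60.2% of the stretches of HOXA7, 25.3% of HOXA11, 13.0% of HOXA6, 11.8% of HOXA10, 6.57% of HOXA4 and 4.11% of HOXA9 are covered by antisense genes. For HOXA7 that gene is HOXA-AS3, whose deposited row, made of the transcripts found, ends before HOXA7. The library protocol kept strand, but the strand setting of the counting is not given in the sources used here. HOXA3, HOXA5, MEIS1 and PBX3 shared no such stretch with another gene on either strand.

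**Figure D4:**
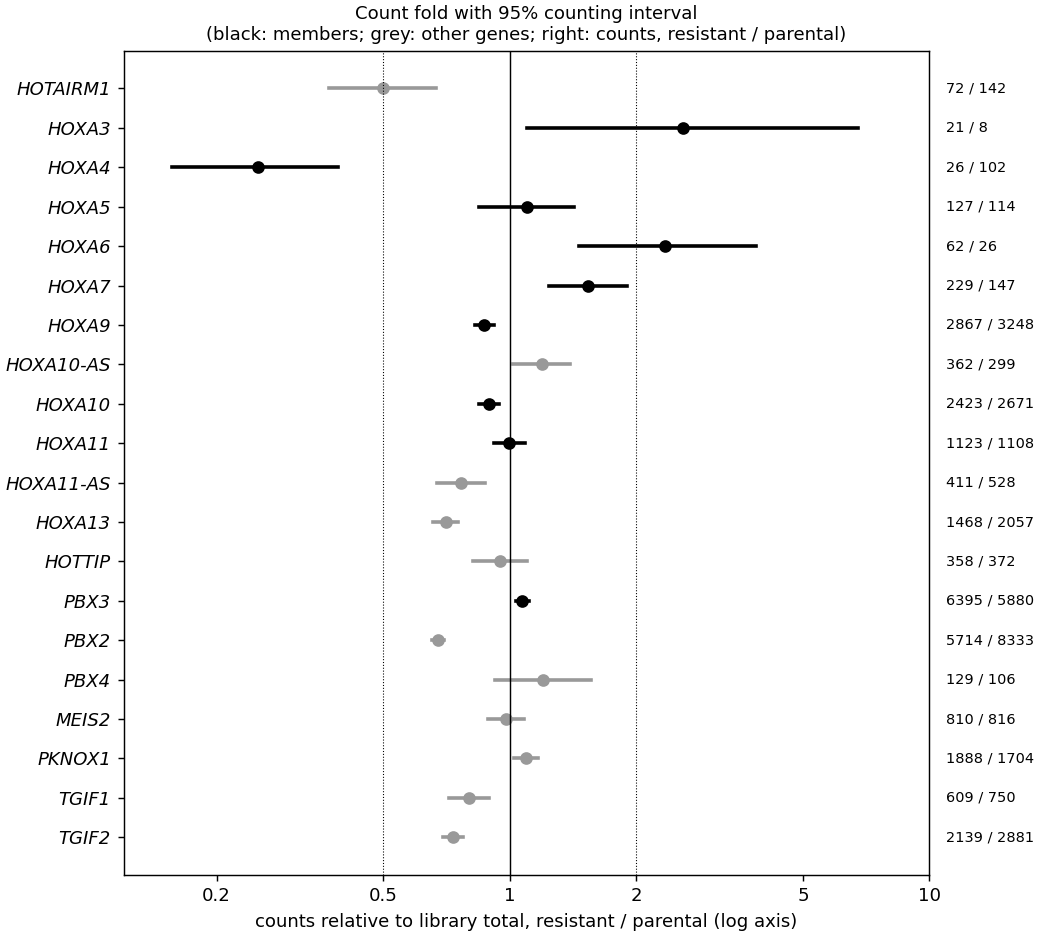
Counts relative to the library total, resistant over parental, on a log axis with 95% counting intervals (lines), for 9 members (black) and other HOXA and TALE genes (grey), with the counts in resistant and parental cells at the right. HOXA4 at 0.251, HOXA6 at 2.35 and HOXA3 at 2.59 lie outside the dotted lines at 0.5 and 2, while HOXA9, HOXA10, HOXA11 and PBX3 lie close to 1.

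PBX3 and PBX2 were expressed well above PBX4, and their balance differed between the libraries. PBX2, a broadly expressed PBX gene on chromosome 6, had 5714 counts and 19.3 FPKM in the resistant library against 8333 counts and 28.6 FPKM in the parental library, which is a count fold of 0.676 (0.653 to 0.699). Of the summed FPKM of PBX2, PBX3 and PBX4, PBX3 made up 48.9% in the resistant and 38.0% in the parental library, and PBX2 49.1% in the resistant and 60.6% in the parental library. PBX4 was at 0.80 FPKM in the resistant and 0.66 in the parental library (1.20, 0.920 to 1.57). These 3 genes together summed to 39.3 FPKM in resistant cells against 47.2 FPKM in parental cells, a count fold of 0.842 (0.822 to 0.863).

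Other MEIS family genes did not stand at a high level where MEIS1 was missing. MEIS2 was at 1.09 FPKM in resistant cells against 1.12 FPKM in parental cells (0.978, 0.886 to 1.08), and MEIS3 at 0.06 in resistant and 0.13 in parental cells. PKNOX1, a related TALE partner of PBX proteins, was at 3.64 FPKM in the resistant and 3.35 in the parental library (1.09, 1.02 to 1.17). The TALE repressors TGIF2 and TGIF1 were lower in resistant cells, TGIF2 at 7.93 FPKM against 10.9 in parental cells (0.732, 0.691 to 0.774) and TGIF1 at 1.10 FPKM against 1.38 in parental cells (0.800, 0.718 to 0.892). PBXIP1, which binds PBX proteins and keeps them from DNA, was at 5.64 FPKM in the resistant and 5.73 in the parental library (0.987, 0.918 to 1.06). Of the 6 expressed genes among these partners, which leave out PBX3 and MEIS1, 0 passed 1.5-fold on the log2(FPKM + 1) scale or by count fold. Of all expressed genes 2.93% were that much higher and 4.77% lower on the log2 scale, and 5.43% and 8.36% by count fold. The median log2 ratio of the 6 genes was -0.10, and that of all expressed genes was -0.02.

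**Figure D5:**
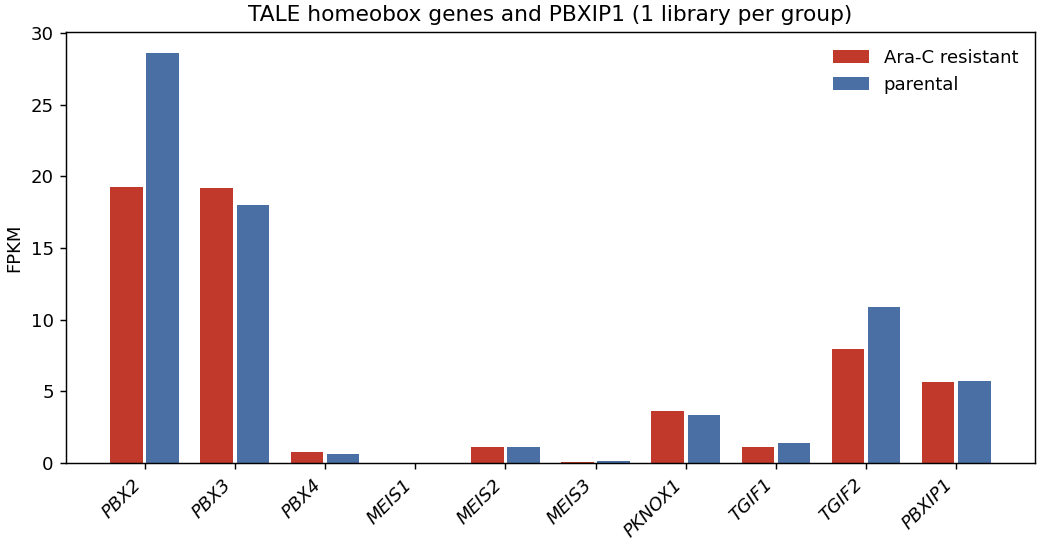
FPKM of the PBX, MEIS, PKNOX and TGIF genes described and of PBXIP1 in the resistant (red, left) and parental (blue, right) library. PBX2 and PBX3 are level in resistant cells at 19.3 and 19.2 FPKM and apart in parental cells at 28.6 and 18.0 FPKM, and no MEIS gene exceeds 1.12 FPKM.

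The measured genes of the other HOX clusters stood at a low level or near 0. Rows were found for 5 of 10 HOXB, 3 of 9 HOXC and 1 of 9 HOXD genes, and the rest were not assessed. HOXB4, a stem cell HOX gene, was the sole measured gene of these clusters at 1 FPKM, with 1.31 in resistant and 1.68 in parental cells (0.783, 0.640 to 0.958). The 5 measured HOXB genes summed to 2.30 FPKM in resistant cells against 3.01 FPKM in parental cells, and the 3 HOXC genes to 0.03 FPKM in the resistant and 0.13 in the parental library. HOXD13, the HOXD gene measured, had 0 counts in resistant and 3 in parental cells.

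The machinery by which KMT2A and its fusions act showed small differences. Of 26 expressed genes of the KMT2A complex and its fusion cofactors 0 passed 1.5-fold on the log2(FPKM + 1) scale or by count fold. Of all expressed genes 2.93% were that much higher and 4.77% lower on the log2 scale, and 5.43% and 8.36% by count fold. The log2 ratios of the 26 genes had a median of -0.06, with 9 above 0 and 17 below. Over all expressed genes the median was -0.02, with 5277 above 0 and 6065 below. CTR9, a subunit of the PAF complex that binds KMT2A, was higher in resistant cells at 14.7 FPKM against 10.5 in parental cells (1.40, 1.35 to 1.46). PSIP1, which tethers menin and KMT2A to chromatin, was at 15.6 FPKM in the resistant and 21.1 in the parental library (0.739, 0.717 to 0.762), and CBX8, a Polycomb protein that also binds fusion partners, at 3.96 FPKM in the resistant and 5.34 in the parental library (0.743, 0.687 to 0.804).

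Among 18 expressed fusion targets outside the cluster, on the log2(FPKM + 1) scale, 0 passed 2-fold, 3 were at least 1.5-fold lower and 0 at least 1.5-fold higher in resistant cells, where 4.77% of all expressed genes were that much lower and 2.93% higher; the median log2 ratio was 0.10. The 3 were RUNX2, a RUNX family factor, at 2.88 FPKM in resistant cells against 6.01 FPKM in parental cells, CCNA1, a cyclin of germ cells and leukaemias, at 3.99 in resistant against 7.50 in parental cells, and CPEB2, a translation regulator, at 3.29 in resistant against 5.99 in parental cells. By count fold, with no pseudocount, RUNX2 passed 2-fold at 0.481 (0.453 to 0.510), the same 3 genes passed 1.5-fold downward, and ADCY9, an adenylate cyclase gene at 15.4 FPKM in resistant against 10.0 in parental cells, passed it upward at 1.54 (1.49 to 1.59). By count fold 8.36% of all expressed genes were at least 1.5-fold lower and 5.43% at least 1.5-fold higher in resistant cells. Of the 16 expressed targets of HOXA9 and MEIS1, which share genes with the fusion targets, 0 passed 1.5-fold on the log2(FPKM + 1) scale and the median was -0.05. By count fold 1 passed 1.5-fold in each direction. These were PIM1, a survival kinase, at 2.35 FPKM in resistant against 3.96 in parental cells (0.595, 0.530 to 0.667), and IGF1R, a growth factor receptor, at 1.16 FPKM in resistant against 0.68 in parental cells (1.70, 1.54 to 1.88). IGF1R reached 1 FPKM in the resistant library alone, so the filter admitted it through the library in which it was higher. The count upward thus serves as a description alone. MYB, a progenitor transcription factor, was at 129 FPKM in resistant against 98.4 in parental cells, and SYK, a tyrosine kinase, at 62.9 against 48.1 in parental cells. Targets were named from background knowledge, and binding was not measured in these libraries.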

How the data were processed

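Poly(A) RNA of Ara-C resistant and parental THP1 cells was sequenced as strand-marked read pairs of 150 bases, per the labels' protocols. The deposited table gives FPKM and whole-number counts per gene, both made by the authors; the submitters' processing notes name the build GRCh38 and the tools HISAT2 (2.0.4), cutadapt (1.9), edgeR, DESeq2 and StringTie (1.3.4d) without saying which did what. The annotation release, the strand setting, the treatment of multi-mapping reads and whether a count is a read or a pair are not given in the sources used here. The resistant count column has a suffix the labels do not explain. FPKM is scaled to length and library, so levels of different genes were compared in FPKM only; the deposited counts are not normalised.

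From these values log2((FPKM resistant + 1)/(FPKM parental + 1)) was computed, with a pseudocount of 1 FPKM that shrinks differences of low genes, for 11388 genes with a symbol and at least 1 FPKM in a library. Each count fold divides a gene's share of the library total in resistant cells by that in parental cells; the totals were 58285463 (resistant) and 57434972 (parental). Folds carry exact 95% Clopper-Pearson intervals. These treat counts as independent molecules and cover counting error only. No test between conditions was made, since each has 1 library. Members and lists were chosen with earlier results of these data known. Named were all members, genes of the HOXA cluster and TALE genes, other HOX genes at 1 FPKM, the nearest expressed neighbours, and from each other list the 3 expressed genes with the largest absolute log2 ratio and those in a count of 5 or fewer; HOXD13, ADCY9, IGF1R and the marker genes printed were named after their values were seen, and some genes under this rule are not reported here. Promoter windows are from RefSeq (GRCh38.p14) and transcript overlap from GENCODE 29 (GRCh38). Alternatives covered the pseudocount, filter, size rule, scaling (TMM of edgeR 4.0.16), centring, overlapping genes and halved counts. Calculations used scipy 1.17.1, pandas 2.3.3, numpy 2.4.6 and matplotlib 3.10.9 in Python 3.11.15, and R 4.3.3.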

Additional observations from a re-analysis of the deposited data

How the results depend on the processing

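No paired analysis was possible because each group has 1 library and the labels give no replicate numbers. The 0 members past 2-fold in either direction stayed 0 with a pseudocount of 0.1 or 5 FPKM, with no filter, with a minimum of 5 FPKM, with a 1.5-fold rule, with count ratios at the same filter and after centring on the median of all expressed genes. Some of these settings could not have changed the 0. Members below 1 FPKM in both libraries cannot reach 2-fold with a pseudocount of 1 or 5 FPKM, so dropping the filter adds none. The minimum of 5 FPKM only removes members. With count ratios and a 1.5-fold rule 1 member was higher (HOXA7) and 0 lower, and with count ratios and no FPKM filter, both chosen after seeing the data, 2 members were higher (HOXA3 and HOXA6) and 1 lower (HOXA4). The median log2 ratio of the members ran from -0.08 with a minimum of 5 FPKM, which keeps 4 members, to 0.10 with count ratios and no FPKM filter. The count fold of HOXA3 reversed to 0.421 when summed with the overlapping HOXA4, since HOXA4 gives most of the summed counts, and that of HOXA4 moved to the same 0.421. The log2 ratios of HOXA3, HOXA4, HOXA6 and HOXA7 shrank to 0.01, -0.17, 0.11 and 0.12 with a pseudocount of 5 FPKM, by the construction of the ratio. TMM and median-of-ratios scaling moved count folds by factors of 1.02 and 1.01. If both mates of each pair had been counted, an alternative also chosen after seeing the data, intervals from halved counts would be 0.125 to 0.469 for HOXA4, 1.19 to 4.89 for HOXA6, 1.12 to 2.06 for HOXA7, 0.810 to 0.935 for HOXA9, 0.826 to 0.967 for HOXA10 and 1.02 to 1.13 for PBX3, while that of HOXA3, 0.711 to 10.8, would include 1. Depth limits HOXA3, HOXA6 and MEIS1 most, with 29, 88 and 4 counts over both libraries.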

Other observations

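Genes around the members gave no common direction. Within 1 Mb of the HOXA cluster 9 expressed genes lie outside it, with log2 ratios from -0.33 to 0.42, 3 above 0 and 6 below. The nearest on the 3′ side of the cluster is SKAP2, an adaptor protein gene, at 11.2 FPKM in resistant cells against 10.7 FPKM in parental cells (1.05-fold by counts, 1.01 to 1.10). The nearest beyond HOXA13 is the pseudogene EIF4HP1, at 7.14 FPKM in the resistant and 7.84 in the parental library (0.914, 0.785 to 1.06). MEIS1 lies in a stretch with a sole expressed gene within 1 Mb, ETAA1, a replication stress gene 823 kb away, at 0.85 FPKM in resistant cells against 1.09 FPKM in parental cells (0.784, 0.690 to 0.892). PBX3 lies among 16 expressed genes with a median log2 ratio of -0.03; its nearest, MAPKAP1 (a subunit of the mTORC2 kinase complex) and MVB12B (of the endosomal sorting machinery), were 1.13-fold (1.09 to 1.17) and 1.06-fold (1.02 to 1.11) higher in resistant cells.

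Of 21 expressed chromatin regulators that act on HOX genes, 0 passed 1.5-fold on the log2(FPKM + 1) scale, where 2.93% of all expressed genes were that much higher and 4.77% lower, and 0 by count fold (5.43% and 8.36% of all). Their log2 ratios were above 0 for 6 and below for 15, with a median of -0.09; over all expressed genes 5277 were above and 6065 below, with a median of -0.02. CBX2, a Polycomb protein, stood at 4.76 FPKM in resistant cells against 6.83 FPKM in parental cells (0.699, 0.658 to 0.742), the acetyltransferase gene CREBBP at 4.95 in resistant and 7.05 in parental cells (0.705, 0.680 to 0.730) and the deubiquitinase gene BAP1 at 23.3 in resistant and 30.4 in parental cells (0.767, 0.744 to 0.791).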
